A study of Mus musculus with 16 samples.

Results

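The nuclear-encoded subunits of the mitochondrial respiratory chain and ATP synthase were followed through 13 mouse RNA libraries. Members were all gene names that begin with Nduf, Uqcr, Sdha, Sdhb, Sdhc, Sdhd, Cox4, Cox5, Cox6, Cox7, Cox8 or Atp5, without pseudogene names containing -ps. This name rule, which used no measured value, gave 92 of the 20325 gene names. They are 36 subunits of complex I, 4 of complex II, 8 of complex III, 12 of complex IV and 15 of complex V (ATP synthase). A further 8 are complex IV isoforms or relatives known from restricted tissues, 7 are assembly factors or close relatives, and 2 are other genes that share the prefix (Cox4nb and Atp5s).

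Complexes I and II pass electrons from NADH and succinate to ubiquinone, complex III passes them on to cytochrome c, and complex IV hands them to oxygen. Complexes I, III and IV pump protons out of the matrix, and complex V makes ATP as the protons return. Most subunits are encoded in the nucleus and imported, while a small core of complexes I, III, IV and V is made inside the mitochondrion, and pluripotent cells are known for a metabolism that leans on glycolysis.

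The study asked how the AP-1 factor c-Jun acts in embryonic stem cells (ESC) and in reprogramming, and how c-JunDN and Jdp2 can stand in for Oct4. All cells carried the OG2 transgene, a reporter of Oct4, on a mixed 129SVJ, C57B6 and CBA background. The ESC libraries, at passage 5, were wild-type (WT) cells and a Tet-On c-Jun line with or without doxycycline (dox), sampled at 36 h. WT ESC are not labelled as treated with dox, and the labels do not say whether the Tet-On line is 1 clone. The embryonic fibroblast (MEF) libraries, at passage 2, were WT cells and cells overexpressing DR (the control, whose full name the labels do not give), c-Jun, c-JunDN, Jdp2 or Oct4. The reprogramming libraries were MEF, also at passage 2, that received Klf4, Sox2 and c-Myc (KSM) together with DR, Oct4, c-JunDN or Jdp2, taken on day 3. Every group is 1 library, so a difference between 2 libraries has no replicate check. The only test across samples below compares KSM with MEF over the 3 constructs given to both (DR, c-JunDN and Jdp2). Intervals are exact conditional binomial 95% intervals on the counts of 2 libraries and cover counting error only.

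Most libraries held 1896522 to 3440958 expected counts, and WT ESC and WT MEF held 12173140 and 21415028. The 7 pluripotency markers summed to 5112 CPM in WT ESC and 6222 CPM in uninduced ESC, against at most 10.5 CPM in MEF other than MEF Oct4. The 7 fibroblast markers summed to 10744 to 53941 CPM in MEF and to 1241 to 1993 CPM in KSM. In MEF Oct4 the pluripotency sum of 9727 CPM came with Zfp42, Esrrb and Dppa5a at 0 counts. Members were given fractional counts, which arise where reads fit several genes, for 14 to 28 of 92 names per library and for 69 in WT MEF. Several members have near-identical relatives or pseudogenes, so their counts are uncertain to that extent. In bulk libraries, fewer cells of a kind and less RNA per cell cannot be told apart.

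The promoters of 6 members that the results below turn on, or that stand for a complex, are shown with the motifs of NRF1, ETS factors, YY1 and ERR, known regulators of respiratory genes, and of AP-1, the family of c-Jun and Jdp2. RefSeq (GRCm38.p6) gave a promoter for 73 of the 92 members, from 250 bases before to 50 after the gene start. Both strands were searched for the palindromic NRF1 motif, the ETS motif CCGGAAGT, the YY1 motif, the ERR motif TCAAGGTCA and the AP-1 motif TGANTCA, none of which overlapped in the runs shown. The 150 bases before each start are printed 5′ to 3′ on the gene's strand, with matches in capitals. Sdha (chr13:74350241-74350390, minus strand) encodes the flavoprotein of complex II, and Sdhd (chr9:50603850-50603999, minus) a membrane anchor of the same complex. Atp5h (chr11:115419920-115420069, minus) encodes a stalk subunit of complex V, and Atp5g3 (chr2:73911327-73911476, minus) a copy of its c ring subunit. Ndufaf4 (chr4:24897933-24898082, plus) encodes a complex I assembly factor, and Ndufa4 (chr6:11907451-11907600, minus) a small subunit now assigned to complex IV.
Sdha: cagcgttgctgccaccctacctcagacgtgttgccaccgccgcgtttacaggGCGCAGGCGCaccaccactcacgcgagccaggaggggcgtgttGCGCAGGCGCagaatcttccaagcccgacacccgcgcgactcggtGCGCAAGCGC
Sdhd: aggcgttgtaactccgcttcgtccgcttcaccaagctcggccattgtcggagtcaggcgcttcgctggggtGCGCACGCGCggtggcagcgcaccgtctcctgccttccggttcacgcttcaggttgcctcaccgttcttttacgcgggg
Atp5h: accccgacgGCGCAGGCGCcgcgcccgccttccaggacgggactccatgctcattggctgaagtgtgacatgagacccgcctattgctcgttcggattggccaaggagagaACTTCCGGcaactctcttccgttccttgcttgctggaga
Atp5g3: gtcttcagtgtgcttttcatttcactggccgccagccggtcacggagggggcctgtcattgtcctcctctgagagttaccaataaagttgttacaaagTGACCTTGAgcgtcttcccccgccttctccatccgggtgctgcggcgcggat
Ndufaf4: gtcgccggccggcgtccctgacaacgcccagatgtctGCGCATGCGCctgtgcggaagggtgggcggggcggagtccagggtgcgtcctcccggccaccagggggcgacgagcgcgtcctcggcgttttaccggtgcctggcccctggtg
Ndufa4: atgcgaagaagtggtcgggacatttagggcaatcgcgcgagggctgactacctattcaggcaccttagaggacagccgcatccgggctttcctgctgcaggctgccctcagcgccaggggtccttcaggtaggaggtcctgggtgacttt

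Capitals mark 3 NRF1 matches for Sdha, 1 each for Sdhd, Atp5h and Ndufaf4, an ETS match in Atp5h, and an ERR match in Atp5g3. Outside the printed bases but within the searched window, Atp5g3 also had 1 NRF1 match and Sdhd 1 ERR match. Ndufa4 held none of the 5 motifs. Shares are per gene, counted where any promoter of the gene held the letters. The NRF1 letters were in 18 of 73 members (24.7%), against 5.19% of all 27025 genes and 12.8% of 5915 other genes with at least 20 CPM. Complex V had 6 of 13 promoters with them, complex I had 7 of 32, complex II had 2 of 3, and complexes III and IV had 1 of 5 and 1 of 10. The YY1 letters were in 4 members (5.48%, against 0.755% of all genes and 2.15% of the other genes with at least 20 CPM), each a complex I subunit. The ERR letters were in 2 (2.74%, against 0.466% and 0.203%). The ETS letters were in 5 (6.85%, against 4.31% of all genes and 10.5% of other genes with at least 20 CPM). The AP-1 letters were in 7 (9.59%, against 8.97% of all genes and 5.49% of those other genes). Each share describes letters in a window and does not show binding.

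Measured per length (TPM), complex V had the highest summed level of the 5 complexes in all ESC and KSM libraries. In fibroblasts with Jdp2 complex I (6383 TPM) was level with complex V (6371 TPM), and with Oct4 complex IV led. Averaged over the 12 libraries named by RefSeq symbols, the highest level was that of Atp5b, the catalytic subunit of ATP synthase, at 1732 TPM. Cox4i1, the common form of a regulatory complex IV subunit, averaged 1074 TPM. Atp5g3 averaged 866 TPM and Cox8a, the smallest complex IV subunit, 761 TPM. Uqcrh, the hinge protein of complex III, averaged 501 TPM and Uqcr10, a small subunit of the same complex, 335 TPM. In complex I the accessory subunits Ndufa7 and Ndufa2 led at 286 and 268 TPM. In complex II the iron-sulfur subunit Sdhb (197 TPM) and Sdhd (193 TPM) were nearly equal. Assembly factors stood far lower, with Ndufaf2 the highest at 43.2 TPM.

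Together the members made up 2.58%, 2.61% and 2.61% of all transcripts in WT, uninduced and induced ESC. The share was 1.40% in WT MEF, 2.09% with DR, 2.16% with c-Jun, 2.22% with c-JunDN and 2.22% with Jdp2. In the KSM libraries it was 2.77% (DR), 3.09% (Oct4), 2.71% (c-JunDN) and 2.79% (Jdp2). On this scale all 4 KSM libraries were above the ESC libraries, which were above all the MEF libraries of the same annotation. Summed CPM, which does not correct for length, overlapped between ESC (9899 to 13321) and KSM (11265 to 14055), with those MEF at 6700 to 8293. Complex V held 0.911% to 0.993% in ESC, 0.563% to 0.716% in those MEF and 0.933% to 1.13% in KSM, so its ESC and KSM ranges overlapped while MEF stood below both. Complex I held 0.583% to 0.586% in ESC, 0.320% to 0.638% in MEF and 0.632% to 0.688% in KSM, and the Jdp2 fibroblasts lay within the KSM range. MEF Oct4 had 2.41%, but that library was quantified on Ensembl genes, where 3 of 84 cytosolic ribosome genes were matched, so its shares of transcripts have another denominator.

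**Figure D1:**
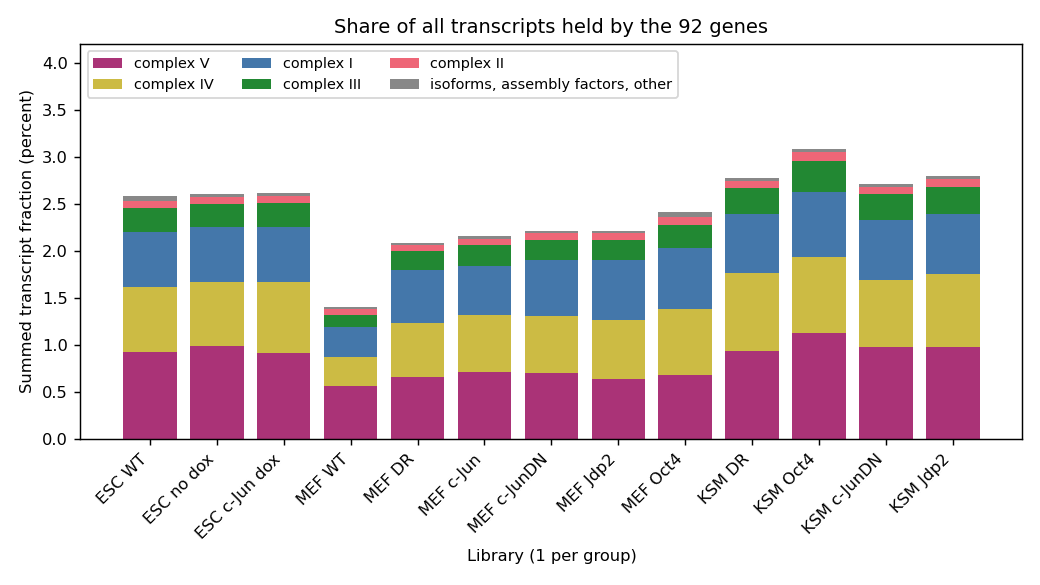
Stacked bars give the percent of all transcripts (summed transcript fraction) held by the 92 genes in each of 13 libraries, split by complex. The KSM bars reach 2.71% to 3.09%, the ESC bars 2.58% to 2.61%, and WT MEF is the lowest at 1.40%; MEF Oct4 (2.41%) was quantified on another gene set.

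The comparisons below use library-scaled counts (CPM after TMM scaling), and each change is the log2 of the ratio of 2 levels, with 1 CPM added to both. A gene was measured with at least 5 CPM in either library and called at 1.5-fold. Of the 92 members, 84 to 87 were measured in each comparison, and the rest were restricted isoforms, the relative Ndufa4l2 and, in some comparisons, Atp5s or Ndufaf3.

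In fibroblasts the AP-1 factors left nearly every chain gene within 1.5-fold of the DR control. With c-Jun, 1 of 85 measured members was higher and 1 lower, where 15.2% of all measured genes were higher and 17.3% lower. With c-JunDN, 3 of 85 were higher and 1 lower (all genes 8.23% and 7.27%). With Jdp2, 2 of 85 were higher and none lower (all genes 12.7% and 13.4%). No member reached 2-fold in these comparisons, where 7.75% of all genes were higher and 9.54% lower with c-Jun, 3.25% and 2.71% with c-JunDN, and 5.81% and 6.32% with Jdp2. The median log2 changes were 0.02, 0.06 and 0.04, beside medians of 0.00, 0.01 and 0.00 over all measured genes. These 3 comparisons share the DR library.

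The few calls were small and mostly on low counts. Ndufc1, a small complex I membrane subunit, had 21.3 CPM with DR, 33.5 with c-Jun, 25.0 with c-JunDN and 30.5 with Jdp2, and the c-Jun ratio was 1.57 (interval 1.06 to 2.36). Ndufa5, a complex I matrix-arm subunit, had 19.8, 22.5, 33.2 and 26.5 CPM in the same order, and its c-JunDN ratio was 1.68 (1.14 to 2.50). Ndufb6, in the complex I membrane arm, had 37.7, 33.5, 41.8 and 59.5 CPM, with a Jdp2 ratio of 1.58 (1.18 to 2.13). Each was highest in a different library, which follows in part from naming the genes by their calls in these comparisons. Sdhaf2, which helps attach flavin to Sdha, had 33.9, 43.5, 35.3 and 58.5 CPM and a Jdp2 ratio of 1.73 (1.27 to 2.36). The intervals of the other 4 calls, Atp5s with c-Jun (0.20 to 1.66) and with c-JunDN (0.82 to 3.72), Atp5sl (0.92 to 2.79) and Ndufaf4 (0.37 to 1.05) with c-JunDN, all included 1.

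The evenness held across the 4 fibroblast libraries as well. Of 84 members with at least 5 CPM in DR, c-Jun, c-JunDN and Jdp2 fibroblasts, 74 had a highest level under 1.5 times the lowest (88.1%), none reached 2 times, and the median was 1.28 times. Of 9610 genes at the same level, 45.7% stayed under 1.5 times, 24.7% reached 2 times, and the median was 1.55 times. Members were abundant, with 75 to 77 of 92 at 20 CPM or more in these libraries. In counts simulated with counting error only, 4.985% to 6.677% of measured unchanged genes were called at 1.5-fold in the 3 AP-1 comparisons. Among those with at least 20 CPM it was 0.732% to 0.99%. Differences between cultures or preparations were not simulated, so these shares are not the false-call rates of real libraries. The part of abundance in the members' evenness and few calls was not tested. Sdha had 201, 192, 176 and 189 CPM in DR, c-Jun, c-JunDN and Jdp2 fibroblasts. Atp5b had 927, 1101, 875 and 843 CPM in that order. Cox4i1 had 282, 242, 297 and 299.8 CPM. For none of the 3 genes did any factor library differ from DR by 1.5-fold.

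Around the chain, the mitochondrial ribosome and TCA cycle lists had smaller shares of calls than glycolysis. With c-Jun and with Jdp2 a larger share of each was called than of the chain. All measured genes had 15.2% higher and 17.3% lower with c-Jun, 8.23% and 7.27% with c-JunDN, and 12.7% and 13.4% with Jdp2. Of 76 mitochondrial ribosome genes, 3 were higher and 4 lower with c-Jun, 2 and 3 with c-JunDN, and 1 and 6 with Jdp2. Of 23 genes of the TCA cycle and pyruvate dehydrogenase, 2 were higher and 2 lower with c-Jun, 0 and 1 with c-JunDN, and 0 and 2 with Jdp2. Of 22 measured hypoxia and glycolysis genes, 11 were higher and none lower with c-Jun (median 0.64). In the same list 13 of 22 were lower with c-JunDN (median -0.72) and 18 of 22 with Jdp2 (median -1.36), and none higher. Slc16a3, which exports lactate, had 58.5 CPM with DR, 170 with c-Jun, 15.2 with c-JunDN and 6.0 with Jdp2. Beside these comparisons, the 7 fibroblast markers summed to 30142 CPM with DR, 13268 with c-Jun, 28761 with c-JunDN and 23802 with Jdp2. The 10 macrophage markers summed to 89.0, 131, 185 and 36.5 CPM, with Ptprc and Fcer1g at 0 with c-Jun, and the part of either in the results was not tested.

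**Figure D2:**
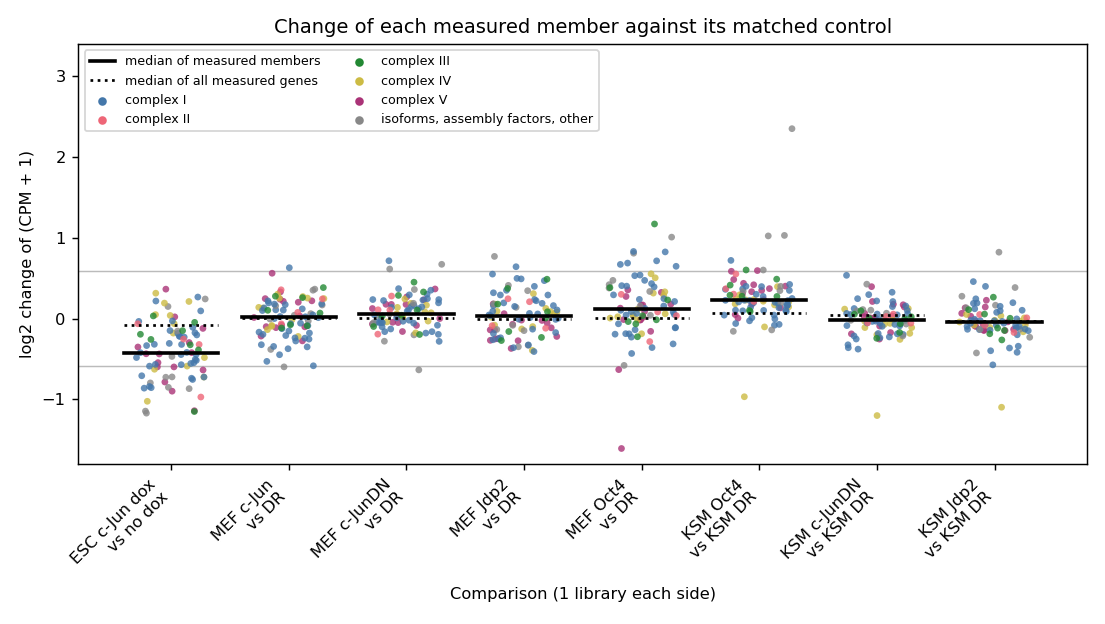
Each point is the log2 change of 1 measured member, coloured by complex, in 8 comparisons of 1 library with its control; bars are medians over members, dotted bars medians over all measured genes, and grey lines mark 1.5-fold. Members sit close to 0 for the 3 AP-1 factors in MEF (medians 0.02, 0.06 and 0.04), below all genes in induced ESC (-0.42 against -0.07) and above them in KSM with Oct4 (0.23 against 0.07).

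With Oct4 in fibroblasts, 9 of 85 members were higher and 2 lower than with DR (all genes 20.8% and 19.4%), and the median was 0.12 (all genes 0.01). Uqcrb, a complex III subunit near the quinone site, had 43.5 CPM with DR and 99.3 with Oct4, a ratio of 2.28 (1.77 to 2.96). Cox6b2, a form of the complex IV subunit Cox6b known from testis, had 19.8 and 40.9 CPM, a ratio of 2.06 (1.40 to 3.08). Atp5g2, which encodes the same c ring protein as Atp5g1 and Atp5g3 with another leader, had 169 and 54.9 CPM, 3.08-fold lower (2.48 to 3.86). Of the higher members, 6 were complex I subunits, and Ndufb3 (0.83) and Ndufa5 (0.83) had the largest log2 changes among them. Ndufb4 (0.65) changed sign, to -0.34, on the TPM scale. The MEF Oct4 library was counted on other gene models than DR, so a difference of annotation and a difference of expression cannot be told apart for any of these genes. Fibroblast markers (10744 against 30142 CPM) and macrophage markers (293 against 89.0 CPM) differed between the libraries too, and their part was not tested.

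In ESC, induction of c-Jun for 36 h went with lower CPM for much of the chain. Of 86 measured members, 27 were lower and none higher, where 32.3% of all measured genes were lower and 29.7% higher. The share of members called lower, 31.4%, was near that background, while the absence of higher calls was not. In all, 73 members were below 0 and 13 above, a count given without the share of all genes. The members' median was -0.42, and that of all genes was below 0 too (-0.07). The direction of the median held on every scale used, but its size did not. It was -0.22 on total counts, where 14 members were lower. It was -0.05 on TPM, where 6 were higher and 6 lower, and the median of all genes moved up with it, to 0.13 and 0.29. All genes had 35.0% higher and 25.5% lower on total counts, and 39.7% and 20.2% on TPM. Relative to the median of all genes, members were lower by a log2 value of -0.35 with TMM scaling, -0.35 on total counts and -0.34 on TPM. Against WT ESC in place of the uninduced line this was gone, with a median of -0.20 for members and -0.26 for all genes. There 17 of 86 members were lower and 4 higher, and 36.5% of all genes were lower and 22.0% higher, so a smaller share of members than of genes at large was called lower. Short genes as a whole were lower in the induced than in the uninduced line. The median of other genes was -0.36 under 1000 bases, -0.24 from 1000 to 2000 and 0.05 from 2000 bases up, and that of members -0.42, -0.32 and -0.40, the last over 6 members.

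By complex the medians were -0.42 for complex I (8 of 36 lower), -0.29 for complex II (1 of 4) and -0.23 for complex III (1 of 8). They were -0.12 for complex IV (4 of 12) and -0.44 for complex V (6 of 15). Assembly factors had 5 of 7 lower and a median of -0.72. The 5 members at least 2-fold lower (all genes: 18.9%) came from 4 of these groups. Ndufaf4 had 34.8 CPM without and 14.9 with dox, 2.33-fold lower (1.59 to 3.46), and 32.2 CPM in WT ESC. Uqcr10 had 108 and 48.1 CPM, 2.24-fold lower (1.82 to 2.78), and 95.4 in WT ESC. Atp5g1 had 228 and 103 CPM, 2.22-fold lower (1.92 to 2.56), and 178 in WT ESC. For all 5 members, including Cox7c and Atp5sl in the next paragraph, the induced library was below both uninduced cultures.

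Cox7c, a small complex IV subunit, had 239 and 117 CPM without and with dox, 2.04-fold lower (1.78 to 2.34), and 187 in WT ESC. Atp5sl, a complex I assembly factor despite its name, had 31.2 and 13.6 CPM, 2.30-fold lower (1.54 to 3.49), and 21.6 in WT ESC. The 3 c ring genes did not move alike. Atp5g1 and Atp5g2 (284 and 164 CPM) were lower with dox, while Atp5g3 had 306 and 311 CPM. Complex IV was also uneven. Cox4i1 had 389 CPM without and 444 with dox, Cox6a1 had 178 and 222, and Cox8a had 231 and 165.

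The surrounding lists moved further than the chain in this comparison. Of 81 measured cytosolic ribosome genes, 76 were lower and none higher (median -0.96), and of 76 mitochondrial ribosome genes 55 were lower and none higher (median -0.87). Of 29 import and carrier genes 19 were lower and 1 higher. Mrpl15 of the mitochondrial ribosome had 180 CPM without and 48.1 with dox, and Slc25a5, an ADP/ATP carrier, had 920.3 and 255 CPM. Among 18 measured regulators of mitochondrial biogenesis, 11 were lower and 1 higher. Esrrb, an orphan receptor that is also a pluripotency gene, had 496 and 40.7 CPM. The pluripotency markers as a whole summed to 6222 CPM without and 1208 with dox, the fibroblast markers to 24.4 and 505 CPM and the macrophage markers to 11.7 and 115 CPM. Their part in the results was not tested. Of the macrophage markers, Ptprc, C1qa, C1qb, C1qc, Lyz2 and Tyrobp were at 0 counts in the induced library.

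Between fibroblasts and reprogramming cells the chain differed more than with any AP-1 factor inside either. In KSM with DR, 30 of 85 members were higher and 7 lower than in MEF with DR (all genes 29.8% and 29.1%), with a median of 0.42 (all genes 0.04). The shares of calls were thus 35.3% higher and 8.24% lower. Across libraries, all 4 KSM libraries were above all 4 vector MEF libraries of the same annotation (DR, c-Jun, c-JunDN and Jdp2) for 47 of 86 measured members (54.7%), against 28.4% of 12250 measured genes. They were below for 3 members (3.49%), against 23.1% of genes. The libraries of a cell state received different factors, so they are not replicates of that state. The count above was 41 to 56 under other scalings (all genes 25.2% to 31.8%) and 48 without KSM DR (all genes 29.7%). It was 49 without MEF DR (all genes 29.7%) and 43 with MEF Oct4 added to the fibroblasts (all genes 24.3%). All these settings were chosen after seeing the data.

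The 3 constructs shared by both states allowed a test, also added after seeing the data. A fit of state and construct over these 6 libraries (edgeR's quasi-likelihood test, Benjamini-Hochberg adjusted over 12069 genes) left 2 residual degrees of freedom and took differences between constructs in their response as error. The edgeR test also pools variance across genes, so its p-values rest on more than these 2 degrees of freedom. Each SE printed below is the size of the log2 difference divided by the square root of the test's F. At an adjusted p under 0.05 the fit called 39 of 86 members higher in KSM (45.3%, all genes 29.9%). It called 6 lower (6.98%, all genes 29.7%). The members' median log2 difference was 0.34, beside -0.01 for all genes. DESeq2 called 25 higher (29.1%, all genes 22.7%) and 2 lower (2.33%, all genes 23.8%). Without the DR pair 28 were higher (32.9%, all genes 25.8%) and 2 lower (2.35%, all genes 24.4%). Without the c-JunDN pair 29 were higher (33.7%, all genes 22.3%) and 2 lower (2.33%, all genes 21.8%). Members were above other genes of like length in KSM with DR against MEF with DR. Their medians were 0.35, 0.50 and 0.47 under 1000, from 1000 to 2000 and from 2000 bases up, beside 0.15, 0.13 and -0.01 for other genes.

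The separated members came from every complex. Complex V had 11 of 15 members above, complex II 3 of 4, complex III 5 of 8, complex IV 7 of 12 and complex I 17 of 36. In KSM with DR against MEF with DR, 4 of the 7 core subunits of complex I were higher (median 0.66), and 7 of its 29 accessory subunits were higher and 3 lower (median 0.26). In complex V, 4 of 5 subunits of the catalytic F1 part were higher (median 0.88) and 2 of 3 c ring genes (median 0.76). None of the 4 peripheral stalk genes was called (median 0.33). The split between these groups was not tested.

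Atp5b had 843 to 1101 CPM in the 4 fibroblast libraries. In KSM it had 1712 CPM (DR), 2158 (Oct4), 1753 (c-JunDN) and 1665 (Jdp2). Atp5a1, its partner in the F1 ring, had 539.6 to 693 CPM in those fibroblasts and 1131 to 1468 in KSM. For both genes the lowest KSM library was well above the highest fibroblast library. Over the 3 shared constructs the log2 difference of Atp5b was 0.94 ± 0.12 (SE; edgeR adjusted p = 0.0007227). Atp5g3 had 147 to 225 CPM in fibroblasts and 370.3, 479.5, 367 and 361 CPM in KSM with DR, Oct4, c-JunDN and Jdp2. The ratio of the DR libraries was 2.43 (2.14 to 2.77). Uqcrfs1, the Rieske iron-sulfur protein of complex III, had 62.4 to 77.0 CPM in fibroblasts and 139 to 179.8 in KSM, with a ratio of 2.34 (1.94 to 2.84). Ndufa10, an accessory subunit of complex I, had 68.7 to 84.9 and 142 to 179 CPM, with a ratio of 2.16 (1.78 to 2.63). The ranges of all 3 were separate.

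Assembly factors stood out by ratio at lower levels. Ndufaf4 had 11.5 to 18.4 CPM in fibroblasts and 55.2, 73.2, 59.1 and 46.9 CPM in KSM with DR, Oct4, c-JunDN and Jdp2, a ratio of 3.00 (2.09 to 4.41) between the DR libraries. Over the shared constructs its log2 difference was 1.80 ± 0.21 (SE; edgeR adjusted p = 0.0004954). Ndufaf2, a complex I chaperone, had 7.0 to 9.5 and 19.1 to 24.5 CPM, a ratio of 2.64 (1.46 to 5.05). Both were also above the 3 ESC libraries, where Ndufaf4 had 14.9 to 34.8 CPM and Ndufaf2 10.8 to 18.5 CPM. Ndufaf3 went the other way between the DR libraries, with 9.7 CPM in MEF and 4.4 in KSM, on 20 and 12 counts.

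The 3 members below fibroblasts in every KSM library were all accessory subunits of complex I. Ndufv3 had 50.0 to 73.0 CPM in fibroblasts and 28.6 to 36.5 in KSM, and was 2.14-fold lower (1.64 to 2.81) in KSM with DR than in MEF with DR. Ndufa11 had 53.0 to 64.5 and 33.9 to 46.9 CPM, and Ndufa3 had 42.0 to 62.5 and 27.0 to 33.8 CPM. The edgeR adjusted p over the shared constructs was 0.001034 for Ndufv3, 0.002418 for Ndufa3 and 0.01051 for Ndufa11. The call of Ndufa11 was lost with DESeq2 (adjusted p = 0.05359), with the Oct4 pair added (0.05663) and without the DR (0.06288) or the c-JunDN pair (0.0637). For Ndufv3 and Ndufa11 the 3 ESC libraries, at 50.5 to 63.8 and 69.1 to 82.2 CPM, were above KSM. Ndufa3 had 32.2 to 33.0 CPM in ESC, within the KSM range.

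**Figure D3:**
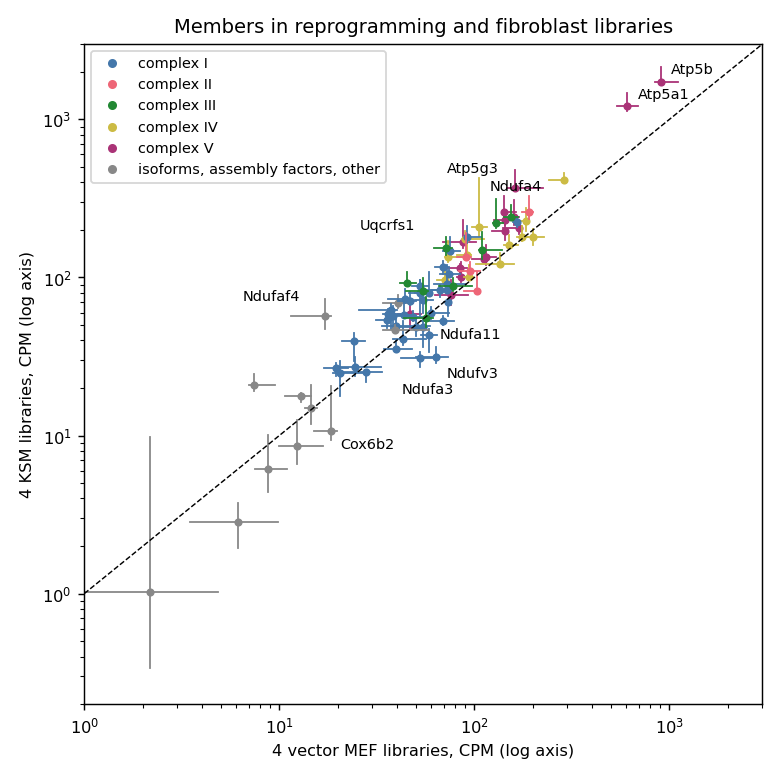
Each of 86 members is drawn at its median CPM in 4 fibroblast libraries (DR, c-Jun, c-JunDN, Jdp2; horizontal, log axis) and in 4 KSM libraries (vertical, log axis), with lines from lowest to highest library and a dashed line of equality. For 47 members all KSM values lie above all fibroblast values; Ndufv3, Ndufa11 and Ndufa3 lie below.

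Other mitochondrial lists had higher calls in KSM with DR against MEF with DR. Of 29 import and carrier genes 22 were higher and 1 lower (median 1.17), of 23 TCA cycle genes 15 and 4 (median 0.71), and of 76 mitochondrial ribosome genes 43 and none (median 0.76). Of 80 measured cytosolic ribosome genes 34 were higher and none lower (median 0.52), and of 16 biogenesis regulators 8 and none (median 0.52). Timm10, a chaperone of the intermembrane space, had 3.9 CPM in MEF and 28.3 in KSM, and Timm8a1, of the same family, had 15.5 and 91.3 CPM. Cytochrome c (Cycs) had 66.7 and 215 CPM. Fibroblast markers summed to 30142 CPM in MEF and 1241 in KSM with DR, with none of the 7 at 0, and their part in the chain's difference was not tested.

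Among KSM libraries the chain was highest with Oct4. Of 85 measured members, 69 had their highest level of the 4 in KSM with Oct4, against 41.1% of 11126 measured genes, a count made after seeing the data. It was 63 or 64 under 3 other scalings, where 31.2% to 36.0% of genes were highest there. Against KSM with DR, 76 of 85 members were above 0, a count given without the share of all genes. The members' median was 0.23, and that of all genes was above 0 too (0.07). On the 1.5-fold rule 8 were higher and 1 lower (all genes 11.7% and 12.7%), so the difference was small for most members. The medians were 0.19 for complex I, 0.34 for complex II, 0.28 for complex III, 0.21 for complex IV and 0.35 for complex V. The excess of the member median over that of all genes was 0.15 with TMM and 0.16 on total counts, DESeq2 size factors and TPM.

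In KSM Atp5g1 had 153 CPM (DR), 232 (Oct4), 173 (c-JunDN) and 160.3 (Jdp2), a ratio of 1.51 for Oct4 over DR. Sdhd had 130, 191, 135 and 134 CPM in the same order. Uqcrb had 49.0, 74.9, 52.5 and 59.1 CPM. In all 3 Oct4 was highest and the other libraries were close together. Cox6b2 had 9.6, 20.6, 9.4 and 11.8 CPM, a ratio of 2.15 (1.36 to 3.51), and Ndufaf3 had 4.4, 10.0, 6.3 and 6.1 CPM, a ratio of 2.27 (1.15 to 4.79). Ndufa4l2, a relative of Ndufa4 known to be induced by hypoxia, had 3 counts with DR and 35 with Oct4, a ratio of 8.82 with a wide interval (2.78 to 44.8). In the hypoxia and glycolysis list 6 of 22 were higher and 2 lower in the same comparison. Among biogenesis regulators, Ppargc1b, a coactivator of respiratory genes, had 3.3 CPM with DR and 18.1 with Oct4 and was the only call in 17. Pluripotency markers summed to 592 and 2416 CPM, nearly all of it from factors these cells were given. Sox2 had 583 and 698 CPM and Pou5f1, which encodes Oct4, 4.05 and 1711 CPM, while none of the other 5 passed 5.85 CPM. Fibroblast markers summed to 1241 and 1453 CPM, and the part of these markers was not tested.

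With c-JunDN in KSM none of 84 members was higher and 1 was lower (all genes 6.54% and 4.67%), with a median of -0.01. With Jdp2, 1 of 84 was higher and 1 lower (all genes 7.63% and 4.83%), with a median of -0.04. Under other scalings the medians ran from -0.06 to 0.04 and from -0.04 to 0.07, so they have no settled sign. The higher member was Atp5sl with Jdp2, at 6.6 and 12.5 CPM on 18 and 37 counts. The lower member was Ndufa4 in both. The 3 KSM comparisons share the DR library.

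Ndufa4, among the abundant members, had 1 library far above the rest. In KSM it had 424 CPM (DR), 217 (Oct4), 184 (c-JunDN) and 198 (Jdp2). It had 126, 143 and 126 CPM in WT, uninduced and induced ESC. In fibroblasts it had 56.7 CPM in WT, 96.7 with DR, 115 with c-Jun, 109 with c-JunDN, 102 with Jdp2 and 138 with Oct4. KSM with DR was thus far above every other library, and the other 3 KSM libraries were above all ESC and MEF. Against KSM with DR the gene was 1.96-fold lower (1.79 to 2.15) with Oct4, 2.30-fold lower (2.08 to 2.55) with c-JunDN and 2.14-fold lower (1.94 to 2.37) with Jdp2. The same library enters its 4.38-fold ratio (3.77 to 5.12) over MEF with DR. The value rests on 1152 counts, and whether it belongs to the culture or the library cannot be told apart. Without Ndufa4 the members' share of transcripts in KSM was 2.59% (DR), 3.00% (Oct4), 2.63% (c-JunDN) and 2.70% (Jdp2).

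**Figure D4:**
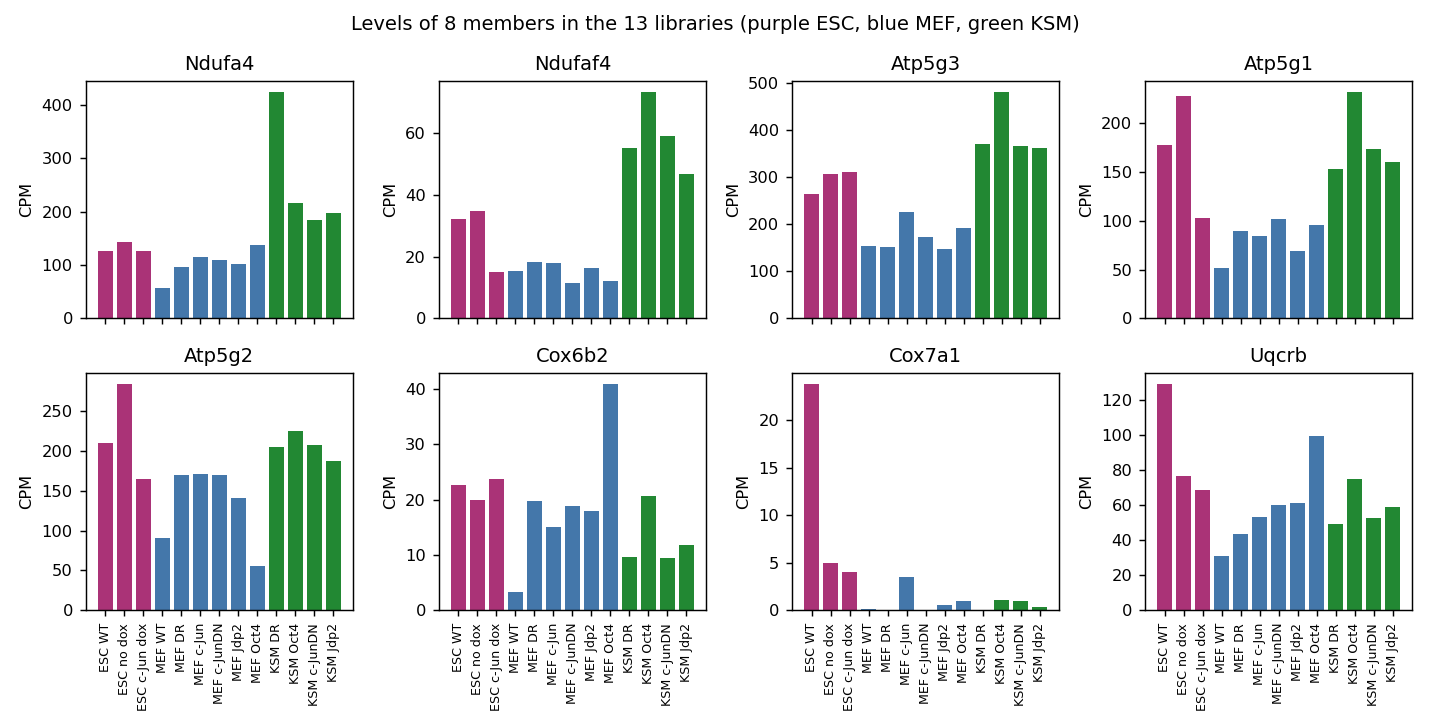
Bars give the CPM of 8 members in each of 13 libraries (1 per group; each panel has its own axis from 0). Ndufa4 reaches 424 CPM in KSM with DR alone, Ndufaf4 and Atp5g3 are higher in all 4 KSM libraries than elsewhere, and Cox7a1 is above 5 CPM in WT ESC only.

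Paired isoforms were dominated by the common form in every library. Cox4i2, the lung and hypoxia form of Cox4i1, had at most 10 counts in any library. Cox6a2, the heart and muscle form of Cox6a1 (713 TPM on average), had at most 2 counts, and Cox8b, the muscle form of Cox8a, at most 1. Cox8c, a testis form, had 0 counts in all 13 libraries, where 3 counts correspond to 0.183 to 1.5 CPM. Cox7b2 had 30 counts in WT ESC and at most 1 elsewhere.

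Cox6b2 was the most abundant of the restricted forms, with 68.5 TPM on average beside 646 TPM for Cox6b1. It had 22.6, 19.9 and 23.7 CPM in WT, uninduced and induced ESC and 3.3 CPM in WT MEF. Cox7a1, the heart and muscle form of Cox7a, had 23.8 CPM in WT ESC on 267 counts, 4.97 and 4.07 CPM in uninduced and induced ESC, and at most 3.5 CPM elsewhere. It was 4.79-fold lower (2.63 to 9.70) in the uninduced line than in WT ESC. Beside it, the 9 striated muscle markers summed to 123, 144 and 33.9 CPM in WT, uninduced and induced ESC, with 5, 3 and 4 of them above 3 counts, and to at most 15.0 CPM in any MEF or KSM library. Mylpf alone had 114 and 139 CPM in WT and uninduced ESC, and Myod1 and Myl1 were at 0 counts in all 3. Fibroblast markers summed to 1195 CPM in WT ESC and 24.4 in the uninduced line, and brown fat markers, with Ucp1 at 0 in both, to 30.5 and 7.68 CPM. The part of these markers in this and every other comparison with WT ESC was not tested. Its relatives Cox7a2 and Cox7a2l averaged 236 and 344 TPM. Cox7a2l, a factor for joining complexes III and IV, was, with Sdhaf2, a member higher in WT MEF than in WT ESC, at 181 and 109 CPM.

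Of the c ring genes, which encode the same mature protein, Atp5g3 averaged 866 TPM, Atp5g2 611 TPM and Atp5g1 355 TPM over the 12 libraries. In the uninduced ESC Atp5g3 had 823 TPM and Atp5g2 800.3 TPM, so the first 2 were close. In induced ESC they had 1085 and 602 TPM, and Atp5g1 303 TPM. In KSM with DR the values were 1122, 654 and 392 TPM, and Atp5g3 led in all 4 KSM libraries. In MEF with DR Atp5g2 led, at 584 TPM beside 501 TPM for Atp5g3.

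The comparisons with WT MEF had the most member calls, and the differences went with transcript length. In MEF with DR, 45 of 85 members were higher and none lower than in WT MEF (all genes 19.5% and 25.4%), with a median of 0.65 (all genes -0.11). Members are short: 70.7% have transcripts under 1000 bases, against 17.2% of all matched genes. Among genes under 1000 bases the median was 0.67 for 718 other genes and 0.85 for 58 members. From 1000 to 2000 bases it was 0.19 and 0.01, and from 2000 bases up -0.32 and -0.40, the last over 6 members. Members were thus above the other genes in the shortest band and below them in the longer bands, and the part of length was not tested. In the AP-1 comparisons of fibroblasts the medians of other genes differed between length bands by less than 0.05, unlike those of induced ESC given above.

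Of the 6 members of 2000 bases or more, 4 were lower with DR and 2 higher. Atp5a1 had 770 CPM in WT MEF and 594 with DR, and Sdha 269 and 201 CPM, but Ndufa11 had 26.3 and 55.1 CPM and Sdhaf1 7.68 and 13.5 CPM. Among short members were Ndufa7 at 15.1 and 74.0 CPM, a ratio of 4.92 (3.99 to 6.04), Uqcrq at 24.8 and 79.8 CPM, and Cox6b2 at 3.3 and 19.8 CPM. In the same WT MEF library 61 of 85 members were lower and 2 higher than in WT ESC (all genes 39.9% and 31.6%), with a median of -0.86. The members' medians there were -1.01 under 1000 bases, -0.78 from 1000 to 2000 and -0.36 from 2000 bases up, beside -0.88, -0.46 and 0.04 for other genes. In uninduced against WT ESC, 12 of 87 members were higher and 2 lower (all genes 14.1% and 31.5%), with a median of 0.22. The largest were Cox7a1 (-2.05), Ndufaf3 (1.53, from 5.0 to 16.3 CPM) and Atp5e (1.19, from 41.2 to 95.3 CPM).

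**Figure D5:**
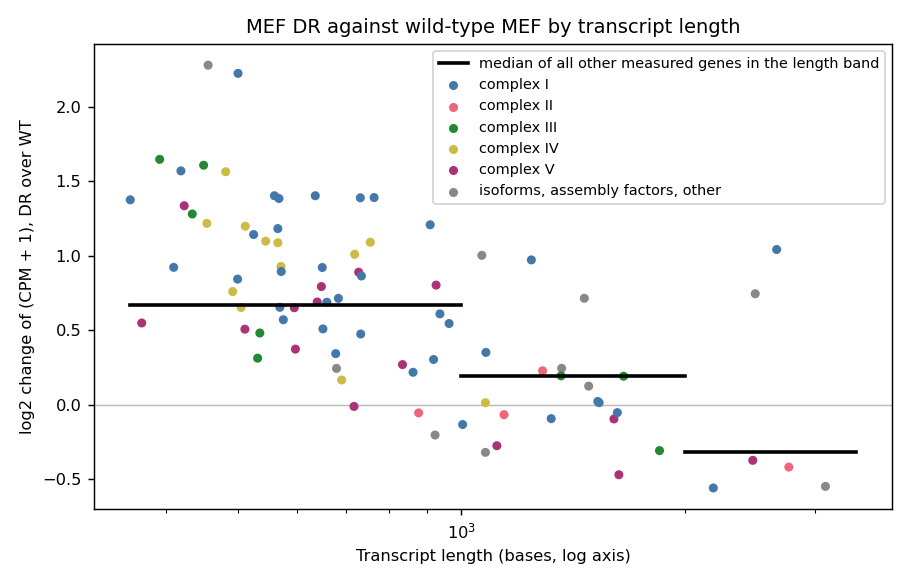
Points give the log2 change of 85 measured members in MEF with DR over WT MEF (vertical) against transcript length in bases (horizontal, log axis); black bars are medians of all other measured genes in 3 length bands (0.67, 0.19 and -0.32). Short members lie mostly above 0, and 4 of the 6 longest lie below.

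A mean profile over 12 libraries was taken from 59 of the 92 members. The 5 genes outside the list whose levels were most like it were Pnn, Rplp2, Mrpl4, Rps29 and Rpl19. Their Pearson correlations of log2 CPM, over 12 libraries and among 4667 genes with at least 50 CPM, were 0.98, 0.98, 0.97, 0.97 and 0.97. Pnn encodes a splicing-associated protein, Mrpl4 a mitochondrial ribosome protein, and the other 3 cytosolic ribosome proteins. Mrpl4 had 33.4 CPM in MEF with DR, 15.5 in WT MEF, 78.2 in uninduced ESC and 67.7 in KSM with DR. The libraries share the length and depth differences described above, so the likeness is a description.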

How the data were processed

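Per the labels' protocols the 13 RNA libraries came from total RNA and a TruSeq preparation. The submitters' processing notes name mm9 and RSEM 1.1.21. The authors deposited RSEM expected counts per gene, which were rounded to whole numbers here. For 12 libraries the second deposited value is a fraction of transcripts per gene, scaled here to TPM. The MEF Oct4 library was deposited on Ensembl genes with expected counts and TPM made by the authors and transcript lengths in bases; its FPKM column was not used. Of its 27729 IDs, 27247 had a symbol and 19677 matched one of the 20325 RefSeq-based names (1713 through a synonym), with 96.98% of its counts. All 92 members matched, 2 of them through a synonym. The deposited peaks, whose score the authors gave per peak on mm9, were not analysed here, since the gene table is of another build.

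Counts were scaled with TMM (edgeR 4.0.16, R 4.3.3) to CPM. Changes are log2 ratios with a pseudocount of 1 CPM, over genes with at least 5 CPM in either library, called at 1.5-fold, with 2-fold as a second rule. All genes were scaled and called in the same way, and their share is printed beside the members' counts. KSM and MEF were also compared over 3 shared constructs with edgeR's quasi-likelihood test on the rounded counts (state and construct, genes with at least 5 CPM in 1 library). Summaries and this fit were tested on simulated data, where the fit recovered 97.5% of 3-fold changes among 11701 genes. Alternatives were total-count scaling, DESeq2 1.42.0 size factors, the deposited fraction, no low filter, a pseudocount of 5 CPM, subunits only and WT cultures as controls.

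Members and lists were chosen with earlier results of these data known. Named genes are the 2 subunits of each complex with the highest mean TPM, the 3 largest called changes per comparison, every member called at 2-fold in the 8 matched comparisons, the isoform groups, the 2 largest called changes of each pathway list and the 5 genes most alike. Of the pathway genes, those printed are a selection, and other members were named after their values were seen.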

Additional observations from a re-analysis of the deposited data

How the results depend on the processing

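KSM and MEF were paired by construct, and without that replicate block 43 members were higher and 7 lower in place of 39 and 6. All genes then had 30.2% higher and 29.9% lower. Same-construct libraries correlated at 0.049 to 0.098 in their deviations from the state means. The other comparisons, of 1 library with 1 library, have no pairs. With DESeq2 25 members were higher and 2 lower, and leaving out each pair gave 28 to 40 higher and 2 to 5 lower. All genes had 22.7% and 23.8% with DESeq2, and 22.3% to 29.4% higher and 21.8% to 29.5% lower without a pair. Of 1422 recomputed values, 199 counts and medians over members stayed within their band, and 61 moved beyond it. The band was 1.5 times the main count or, for medians, the median half-width of the single members' intervals. That half-width is the typical counting error of 1 member and is wider than the counting error of a median over members. Of the single members, 996 values stayed within their interval or on their side of the threshold, 161 moved, 4 lost the call (Ndufa11, KSM against MEF) and 1 changed sign (Ndufb4 in MEF Oct4, to -0.337 on TPM). The cause of these moves was not tested, except where fewer or more genes entered.

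Percentages in brackets below are shares of all measured genes in the same setting. On total counts, members lower in induced ESC were 14 (25.5%), and MEF c-Jun had 2 higher and 0 lower (16.8% and 16.0%). MEF Oct4 had 1 lower (17.5%) and KSM Oct4 4 higher (11.0%). On that scale MEF DR against WT MEF had a median of 1.01 (all genes 0.257). WT MEF against WT ESC had a median of -1.12 (all genes -0.467) and 1 higher (26.3%). KSM DR against MEF DR had 4 lower (26.5%). On DESeq2 size factors MEF c-Jun had 2 higher and 0 lower (16.5% and 16.3%) and KSM Oct4 4 higher (9.71%). Uninduced against WT ESC had 22 higher (19.8%), and 5 members were below in all KSM libraries (26.4%). On TPM induced ESC had a median of -0.046 with 6 higher and 6 lower (39.7% and 20.2%). MEF c-Jun had 2 higher and 4 lower (14.8% and 17.1%), and MEF c-JunDN 2 lower (7.03%). MEF Jdp2 had 6 higher and 1 lower (15.3% and 11.2%), and MEF Oct4 16 higher (30.3%). There KSM Oct4 had 5 higher (9.6%) and KSM c-JunDN 2 higher (6.55%). Uninduced against WT ESC had 5 higher (11.0%), and 6 members were below in all KSM libraries (26.1%). Against WT cultures, induced ESC had 4 higher and 17 lower. Against WT MEF the medians and higher members were 0.691 and 45 for MEF c-Jun (0 lower), 0.737 and 51 for MEF c-JunDN, 0.591 and 44 for MEF Jdp2 (1 lower), and 0.856 and 52 for MEF Oct4.

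With no low filter MEF c-Jun had 2 higher and 3 lower (11.7% and 13.4%), MEF c-JunDN 2 lower (6.37%) and MEF Jdp2 2 lower (10.5%). KSM c-JunDN had 1 higher (7.69%) and KSM Jdp2 2 lower (4.86%). With a pseudocount of 5 CPM MEF c-Jun had 0 higher and 0 lower (12.4% and 14.3%). MEF c-JunDN had 1 higher and 0 lower (5.44% and 4.91%), and KSM Oct4 4 higher (8.56%). With subunits only MEF c-Jun had 0 lower (17.3%) and MEF c-JunDN 1 higher and 0 lower (8.23% and 7.27%). MEF Jdp2 had 1 higher (12.7%) and KSM Jdp2 0 higher (7.63%). WT MEF against WT ESC had 1 higher (31.6%) and KSM DR against MEF DR 4 lower (29.1%). Depth limits the low members: 3 counts are worth 0.183 CPM in WT MEF and up to 1.5 CPM in the fibroblasts with c-Jun. The settings for the KSM and MEF separation and for the WT and DR comparisons were chosen after seeing the data.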
